A study of Mus musculus with 12 samples.

Results

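Chemokines are small secreted proteins that attract cells carrying the matching receptor. CCL5, CXCL9 and CXCL10 draw T cells and natural killer cells, CCL2 and CCL7 draw monocytes, and CXCL1 draws neutrophils. CX3CL1 and CXCL16 are made as membrane proteins and are cut from the cell surface, and CXCL12 guides cells that carry CXCR4. In many cell types, NF-kB factors and interferon-activated factors bind the promoters of CCL5 and CXCL10, and interferon gamma is the classical inducer of CXCL9.

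The transcripts of 9 chemokine ligands, Ccl5, Cxcl10, Cxcl9, Ccl2, Ccl7, Cxcl1, Cxcl16, Cx3cl1 and Cxcl12, were followed in B16F10 cells, a mouse melanoma line grown alone in culture. They were taken by symbol from the 24421 symbols of each deposited count table. The 12 RNA-seq libraries came from 3 replicates, named as independent biological repeats in the methods, of each of 4 groups. Control cells received the vehicle dimethyl sulfoxide. DAC cells received 5-aza-2'-deoxycytidine, a nucleoside analog that inhibits DNA methylation, at 25 nM for 72 h. SFN cells received sulforaphane, an isothiocyanate from cruciferous vegetables, for 48 h. DAC+SFN cells received DAC at 25 nM for 72 h, with SFN at 5 µM added for the last 48 h. For SFN single treatment the methods name 5 µM and the labels 5 nM. Under the labels, the SFN and DAC+SFN groups would have received unequal SFN doses, which touches DAC+SFN against SFN, the interaction and the averaged effects of both drugs. In bulk RNA, fewer cells that express a gene and less of its RNA per cell cannot be told apart.

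The deposited values were unnormalized read counts on genes, with totals of 15880957 to 27291436 per library. Levels are given as CPM, counts scaled to a library of 1e+06 counts after TMM normalization, and 1 CPM stood for 15.9 to 27.3 counts. Testing was limited to genes that reached 1 CPM in 3 or more libraries, which kept 11638 genes and 3 of the 9 chemokines, Ccl5, Cxcl10 and Cx3cl1. The other 6 were too low to test, and their counts are given below without a test. An edgeR quasi-likelihood model was fitted to all 12 libraries together, and it included the replicate number as a blocking term. A gene passed the test when its p-value, adjusted over all tested genes by Benjamini-Hochberg, was under 0.05, and the stricter call of the study's methods also asked for a fold change above 2. Fold changes are on the log2 scale with their standard error (SE). In all 9 comparisons made, the median log2 fold change of all tested genes was between -0.01 and 0.01. The RNA fitted the labelled cell type, since 7 melanocyte genes (Pmel, Tyr, Tyrp1, Dct, Mlana, Mitf and Sox10) summed to 21420 to 30150 CPM in every library.

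The promoters of Cxcl10, Cxcl9 and Cx3cl1 are shown because Cxcl10 passed the test for DAC averaged over SFN and Cx3cl1 for SFN averaged over DAC, while Cxcl9, a neighbour of Cxcl10, stayed near 0 counts. RefSeq promoter sequences (GRCm38.p6, 250 bases before to 50 bases after the RefSeq start of the gene, read along the gene's own strand) were matched for 5 of the 9 genes, Cxcl10, Cxcl9, Cxcl1, Cx3cl1 and Cxcl12. The letters GAAANNGAAA of the interferon-stimulated response element (ISRE), GGGNNTTCC or GGGNNNTTCC of the NF-kB site and TGACNNNGC of the antioxidant response element (ARE) were searched on both strands, and overlapping matches to 1 motif were merged. Capitals mark the matches.
Cxcl10: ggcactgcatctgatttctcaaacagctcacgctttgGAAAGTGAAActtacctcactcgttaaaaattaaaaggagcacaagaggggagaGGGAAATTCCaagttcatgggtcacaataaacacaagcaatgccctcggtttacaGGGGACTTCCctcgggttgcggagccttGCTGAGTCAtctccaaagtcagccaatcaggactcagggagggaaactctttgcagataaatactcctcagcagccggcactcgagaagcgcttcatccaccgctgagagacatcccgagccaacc
Cxcl9: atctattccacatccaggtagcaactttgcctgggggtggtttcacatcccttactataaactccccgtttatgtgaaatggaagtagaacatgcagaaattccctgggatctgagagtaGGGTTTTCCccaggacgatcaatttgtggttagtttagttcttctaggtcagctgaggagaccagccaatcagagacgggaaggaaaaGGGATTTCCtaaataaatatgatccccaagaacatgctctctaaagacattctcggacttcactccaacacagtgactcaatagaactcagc
Cx3cl1: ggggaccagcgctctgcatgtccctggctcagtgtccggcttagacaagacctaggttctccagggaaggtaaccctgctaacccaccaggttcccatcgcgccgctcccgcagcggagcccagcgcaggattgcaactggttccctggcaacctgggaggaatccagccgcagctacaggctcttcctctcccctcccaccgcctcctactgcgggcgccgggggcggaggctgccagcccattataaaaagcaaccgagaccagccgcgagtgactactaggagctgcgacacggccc
The Cxcl10 promoter (chr5:92348840-92349139, minus strand) held in this order 1 ISRE match, whose first base was at position -213 from the start, 2 NF-kB matches at -159 and -104, and 1 ARE match on the opposite strand at -76. The Cxcl9 promoter (chr5:92328030-92328329, minus strand) held 2 NF-kB matches, at -130 and -42, and no match to the letters of the other motifs. None of these letters were found in the Cx3cl1 promoter (chr8:94771930-94772229, plus strand). Its RefSeq start lies downstream of the gene start given below, 94772009, so most of this window is inside the gene as annotated. Sequence further upstream of that gene start was not searched. Of 32851 mouse promoters of this length, 3.44% held the ISRE letters, 9.74% those of the NF-kB site and 12.4% those of the ARE. The number of CG pairs, the pairs at which mouse DNA is methylated, was 10 for Cxcl10, 4 for Cxcl9 and 19 for Cx3cl1, against a median of 7 over all promoters. Among the genes too low to test, Cxcl1 also held 2 NF-kB matches, at -89 and -71, and 10 CG pairs. Cxcl12, likewise too low to test, held no match to the motifs and 20 CG pairs. No DNA methylation or factor binding was measured in these samples, so the matches are descriptions of the sequence.

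Ccl5, a ligand of CCR1 and CCR3, was higher with either drug and highest with both. Its gene lies on mm10 chromosome 11 from 83525778 to 83530518, minus strand. In replicates 1, 2 and 3, Ccl5 was at 2.99, 2.15 and 4.16 CPM in control and at 6.05, 6.06 and 9.44 CPM with DAC. With SFN it was at 13.7, 8.58 and 9.40 CPM, and with DAC+SFN at 21.2, 14.9 and 16.2 CPM. The control libraries were below all others and the DAC+SFN libraries above all others, and the ranges of DAC and SFN overlapped. The control mean was 3.10 ± 1.01 CPM, the DAC mean 7.18 ± 1.96, the SFN mean 10.6 ± 2.74 and the DAC+SFN mean 17.4 ± 3.31 (SD, n = 3). These values rest on 50 to 81 counts per control library and on 311 to 465 counts per DAC+SFN library.

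Cxcl10, a ligand of CXCR3 that is induced by interferons, was higher in the groups that received DAC. Its gene lies on chromosome 5 from 92346638 to 92348889, minus strand. In replicates 1, 2 and 3, Cxcl10 was at 8.92, 12.5 and 12.7 CPM in control and at 11.01, 10.4 and 11.9 CPM with SFN. With DAC it was at 14.8, 14.5 and 23.5 CPM, and with DAC+SFN at 20.8, 22.1 and 26.1 CPM. The control and SFN ranges overlapped and lay below every library that received DAC, and DAC replicate 3 reached the range of DAC+SFN. The means were 11.4 ± 2.14 CPM in control, 11.1 ± 0.756 with SFN, 17.6 ± 5.08 with DAC and 23.0 ± 2.77 with DAC+SFN (SD, n = 3).

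Cx3cl1, the membrane-bound ligand of CX3CR1, was higher in the groups that received SFN. Its gene lies on chromosome 8 from 94772009 to 94782427, plus strand. In replicates 1, 2 and 3, Cx3cl1 was at 1.10, 1.16 and 2.57 CPM in control and at 0.952, 1.98 and 2.29 CPM with DAC. With SFN it was at 2.31, 3.54 and 2.86 CPM, and with DAC+SFN at 3.05, 3.40 and 3.13 CPM. Every DAC+SFN library was above every control and DAC library, whereas the SFN range overlapped that of control through control replicate 3. The control mean was 1.61 ± 0.829 CPM, the DAC mean 1.74 ± 0.698, the SFN mean 2.90 ± 0.617 and the DAC+SFN mean 3.19 ± 0.184 (SD, n = 3), from 23 to 94 counts per library.

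**Figure D1:**
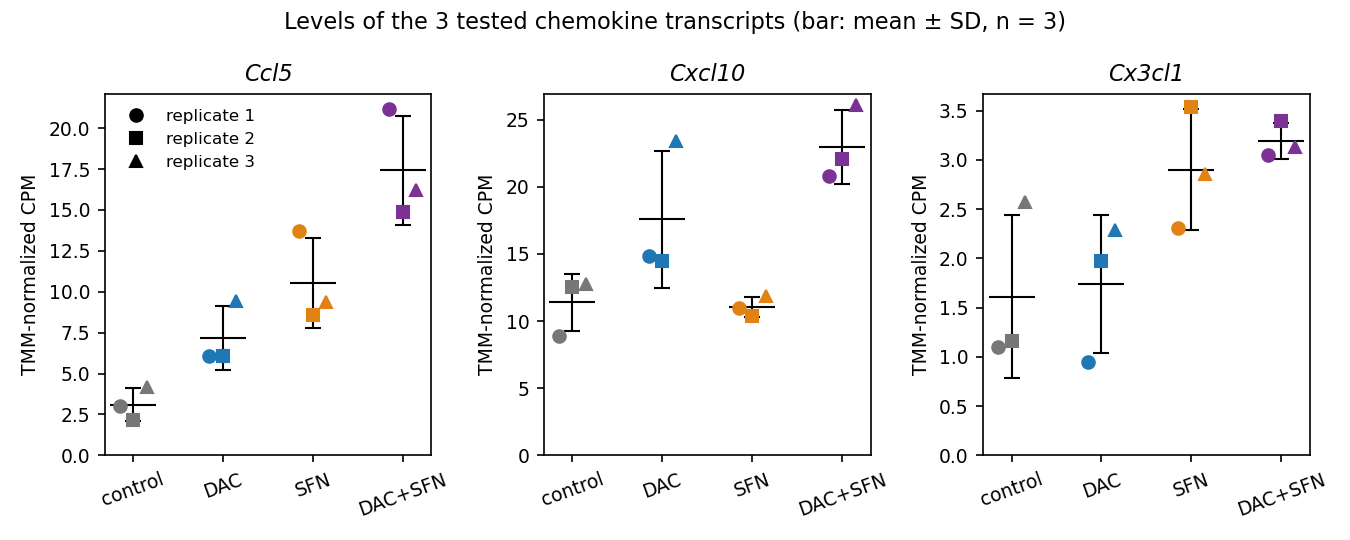
TMM-normalized CPM of Ccl5, Cxcl10 and Cx3cl1 on linear axes that start at 0, with 1 point per library shaped by replicate number and coloured by group, and black bars for the mean ± SD (n = 3). Ccl5 climbs from 3.10 CPM in control to 17.4 CPM with DAC+SFN, Cxcl10 stays at 11.1 CPM with SFN alone, and Cx3cl1 stays at 1.74 CPM with DAC alone.

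Per length, Cxcl10 was the more abundant of the first pair in control, and Ccl5 in SFN and in DAC+SFN. Per kb of the longest principal transcript (532 bases for Ccl5, 1094 for Cxcl10 and 3315 for Cx3cl1), the level of Cxcl10 was 10.4 ± 1.96 CPM per kb in control, against 5.83 ± 1.90 for Ccl5. In SFN, Ccl5 was at 19.85 ± 5.16 CPM per kb and Cxcl10 at 10.12 ± 0.691. In DAC+SFN, Ccl5 was at 32.8 ± 6.22 CPM per kb and Cxcl10 at 21.0 ± 2.53. In DAC, the level of Ccl5 was 13.5 ± 3.68 CPM per kb and that of Cxcl10 was 16.1 ± 4.65, within 1 SD of each other. Cx3cl1 was the lowest of the 3 in each group, between 0.486 ± 0.250 CPM per kb in control and 0.963 ± 0.0554 in DAC+SFN.

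The other 6 ligands were at or near 0 in every group. Cxcl9, which lies beside Cxcl10 and shares its receptor, had 1 to 4 counts per library and 22 in all. Cxcl1, a neutrophil attractant, had 1 to 10 counts per library and 64 in all, and the files give its Entrez identifier also to Cxcl2 and Cxcl3, so it was followed by symbol. The spread between replicates was as wide as that between groups for both genes.

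Cxcl16, the ligand of CXCR6, was at 0 in all 3 control libraries and had 1, 2 and 4 counts in the DAC+SFN libraries. In the DAC and SFN groups it had 0 counts in replicates 1 and 2 and 1 count in replicate 3. Cxcl16 was thus found in all DAC+SFN libraries and in no control library, on 9 counts in all. In an edgeR fit without the filter on low counts (17403 genes), its adjusted p-value for DAC+SFN against control was 0.165, the lowest of these 6 genes in any comparison.

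Cxcl12, the ligand of CXCR4 and ACKR3, had 0 to 3 counts per library and 10 in all. Ccl2, the monocyte attractant, had 2 counts in DAC replicate 1 and 0 in the other 11 libraries, and its neighbour Ccl7 had 0 counts in all 12. A count of 0 allows up to 3 counts, which is 0.1099 to 0.189 CPM in a library and 0.0112 CPM over the 267659571 counts of all libraries. These limits cover counting error only. Any difference between groups in these 6 genes was not detectable at this depth.

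**Figure D2:**
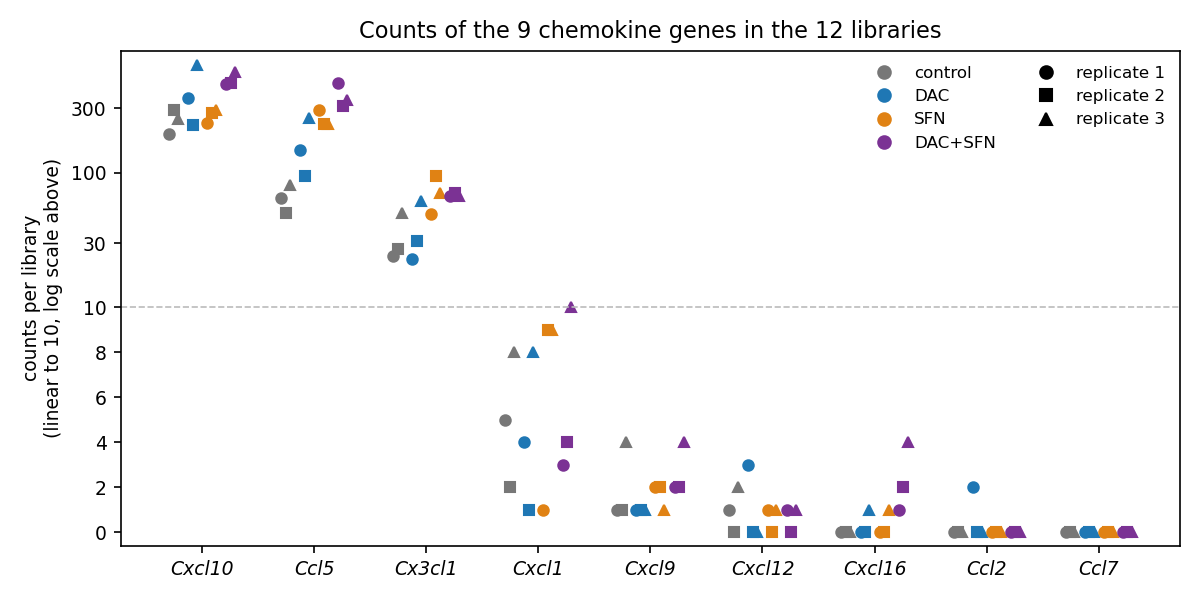
Counts per library of the 9 chemokine genes, on an axis that is linear up to 10 counts (dashed line) and logarithmic above, coloured by group and shaped by replicate number. Cxcl10, Ccl5 and Cx3cl1 stand above 20 counts in all libraries, and the other 6 genes have 10 counts or fewer in each.

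Which of these transcripts differed after each single treatment was tested against control. With DAC, Ccl5 passed the test with a log2 fold change of 1.23 (SE 0.22, edgeR adjusted p = 0.0441), and its within-replicate log2 differences were 0.99, 1.46 and 1.16. It was the only chemokine of the 3 tested to pass, where 0.180% of all tested genes were called higher, and it also met the 2-fold call, which 0.0344% met. Cxcl10 was higher in 3 of 3 replicates, by 0.73, 0.21 and 0.88 on the log2 scale, and did not pass (log2 fold change 0.62, SE 0.13, edgeR adjusted p = 0.0666, 95% interval 0.34 to 0.89). Cx3cl1 had a log2 fold change of 0.12 (SE 0.30, edgeR adjusted p = 0.930, 95% interval -0.53 to 0.76) and was higher in 1 of 3 replicates. The call on Ccl5 was lost without control replicate 1, control replicate 2, DAC replicate 2 or DAC replicate 3 (edgeR adjusted p = 0.275, 0.286, 0.114 and 0.257) and without the replicate block (adjusted p = 1). Cxcl10 passed by DESeq2 (adjusted p = 0.00579), without the filter on low counts (edgeR adjusted p = 0.00165) and when only the control and DAC libraries were fitted (edgeR adjusted p = 0.00224).

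With SFN, Ccl5 and Cx3cl1 rose and Cxcl10 stayed close to control. The log2 fold change of Ccl5 was 1.78 (SE 0.21, edgeR adjusted p = 8.37e-05), with within-replicate log2 differences of 2.16, 1.95 and 1.16. That of Cx3cl1 was 0.89 (SE 0.28, edgeR adjusted p = 0.0454), with within-replicate log2 differences of 1.00, 1.54 and 0.15. These were 2 of the 3 tested chemokines, where 8.27% of all tested genes were called higher, and Ccl5 met the 2-fold call, which 1.08% met. Cxcl10 had a log2 fold change of -0.04 (SE 0.13, edgeR adjusted p = 0.886), and its 95% interval of -0.32 to 0.24 left out a change of 1.5-fold in either direction. The call on Cx3cl1 was lost without control replicate 1, control replicate 2, SFN replicate 1 or SFN replicate 2 (edgeR adjusted p = 0.147, 0.267, 0.119 and 0.220) and without the replicate block (adjusted p = 0.295).

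After the combination treatment, all 3 tested chemokines were higher than in control in 3 of 3 replicates, with no overlap of the groups. The share of all tested genes that separated in this way is not given, here or in the comparisons below. By the edgeR test against control, 4940 of 11638 genes had an unadjusted p-value under 0.05. The log2 fold change was 2.51 for Ccl5 (SE 0.21, edgeR adjusted p = 2.08e-06), a fold of 5.69. It was 1.01 for Cxcl10 (SE 0.13, edgeR adjusted p = 5.52e-05), a fold of 2.02, and 1.04 for Cx3cl1 (SE 0.28, edgeR adjusted p = 0.01101), a fold of 2.06. All 3 therefore met the 2-fold call, which 2.33% of the tested genes met, while 17.0% were called higher by the adjusted p-value alone. The call on Cx3cl1 was lost without control replicate 2 or DAC+SFN replicate 1 (edgeR adjusted p = 0.0837 and 0.0648) and without the replicate block (adjusted p = 0.0990). The folds of Cxcl10 and Cx3cl1 stood just above the 2-fold limit.

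The combination treatment was then set against each single treatment, to see which transcripts the added drug changed. Against DAC, all 3 passed the test, where 9.55% of all tested genes were called higher. The log2 fold change was 1.28 for Ccl5 (SE 0.19, edgeR adjusted p = 0.000553), 0.92 for Cx3cl1 (SE 0.27, edgeR adjusted p = 0.0336) and 0.39 for Cxcl10 (SE 0.12, edgeR adjusted p = 0.0408). Each was higher in 3 of 3 replicates, and the groups did not overlap for Ccl5 and Cx3cl1 but did for Cxcl10. Without DAC replicate 1 or 2 or DAC+SFN replicate 1 or 2, the calls on Cx3cl1 (edgeR adjusted p = 0.1697, 0.0742, 0.167 and 0.0804) and on Cxcl10 (0.157, 0.194, 0.147 and 0.103) were lost. They were also lost with only the DAC and DAC+SFN libraries (edgeR adjusted p = 0.0574 and 0.0722) and without the replicate block (0.245 and 0.333), which also ended that on Ccl5 (0.0834).

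Against SFN, Cxcl10 passed the test with a log2 fold change of 1.05 (SE 0.13, edgeR adjusted p = 0.00345), where 0.937% of all tested genes were called higher. Its fold of 2.07 met the 2-fold call, which 0.112% met. Ccl5 was higher in 3 of 3 replicates without overlap, by 0.63, 0.79 and 0.78 on the log2 scale, and missed the threshold (log2 fold change 0.73, SE 0.18, edgeR adjusted p = 0.0533, 95% interval 0.35 to 1.11). Cx3cl1 had a log2 fold change of 0.15 (SE 0.25, edgeR adjusted p = 0.804, 95% interval -0.39 to 0.69). The call on Cxcl10 was lost without SFN replicate 3 (edgeR adjusted p = 0.0921) and without the replicate block (adjusted p = 0.288). Ccl5 passed without DAC+SFN replicate 3 (edgeR adjusted p = 0.0126), by DESeq2 (0.00892), with DESeq2's size factors in edgeR (0.0494), without the filter (0.00196) and with only the SFN and DAC+SFN libraries (8.87e-05).

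**Figure D3:**
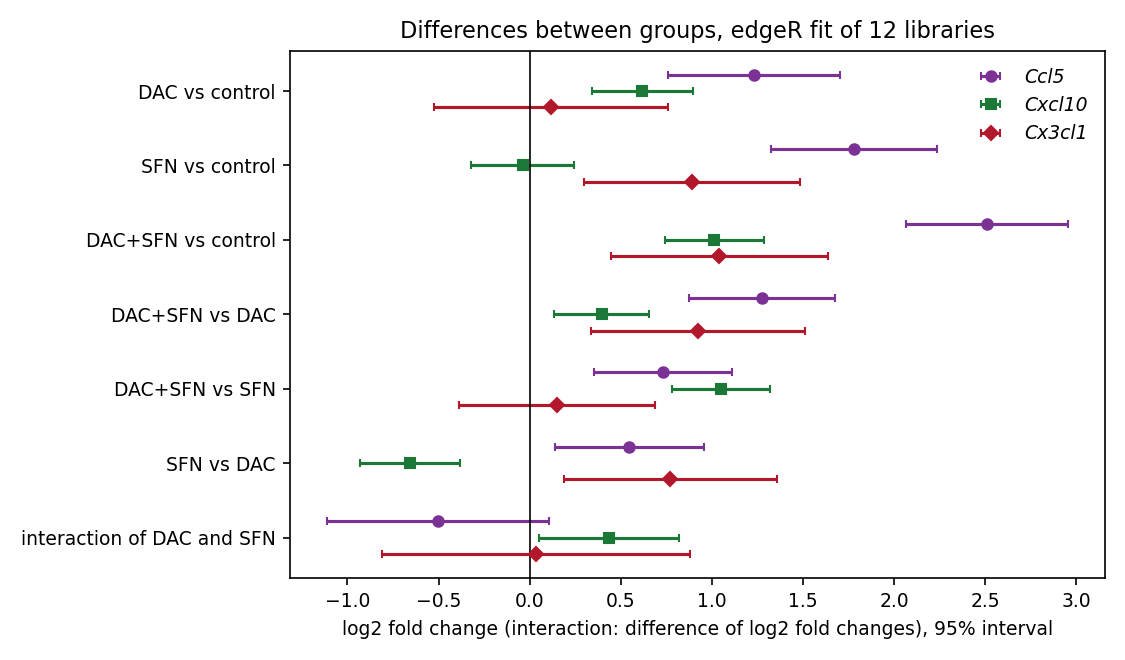
Log2 fold changes of Ccl5 (circles), Cxcl10 (squares) and Cx3cl1 (diamonds) with 95% intervals from the edgeR fit of 12 libraries. The bottom row is the interaction, a difference of log2 fold changes. Ccl5 lies at 1.23, 1.78 and 2.51 against control, Cxcl10 reaches -0.04 with SFN and 1.01 with DAC+SFN, and Cx3cl1 reaches 0.12 with DAC and 0.89 with SFN.

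With each drug averaged over the presence of the other, all 12 libraries bear on each value. DAC raised Ccl5 by 0.98 (SE 0.14, edgeR adjusted p = 0.00325) and Cxcl10 by 0.84 (SE 0.09, edgeR adjusted p = 0.000466) on the log2 scale, where 3.07% of tested genes were called higher and 2.15% lower. Cx3cl1 differed with DAC by 0.13 (SE 0.20, edgeR adjusted p = 0.750, 95% interval -0.29 to 0.55). SFN raised Ccl5 by 1.53 (SE 0.14, edgeR adjusted p = 3.09e-06) and Cx3cl1 by 0.91 (SE 0.20, edgeR adjusted p = 0.00302), where 16.1% of tested genes were called higher and 13.5% lower. Cxcl10 differed with SFN by 0.18 (SE 0.09, edgeR adjusted p = 0.151, 95% interval -0.01 to 0.37), and passed without DAC replicate 3 (edgeR adjusted p = 0.0326). The 4 averaged calls held in each of the 12 fits that left out 1 library, and without the replicate block only that of SFN on Ccl5 did (adjusted p = 0.00211, against 0.161 for both DAC calls and 0.0532 for SFN on Cx3cl1).

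Whether the drugs differed from each other was tested by SFN against DAC, a comparison added after the values were seen, which equals the difference of the averaged drug effects. Cxcl10 was lower with SFN than with DAC in 3 of 3 replicates without overlap (log2 fold change -0.66, SE 0.13, edgeR adjusted p = 0.00614), where 2.93% of tested genes were higher with SFN and 2.96% lower. This call was lost without SFN replicate 3 (edgeR adjusted p = 0.0658) and without the replicate block (adjusted p = 0.294). Cx3cl1 was higher with SFN in 3 of 3 replicates without overlap, and the difference of 0.77 (SE 0.27, 95% interval 0.19 to 1.36) did not pass (edgeR adjusted p = 0.123). A difference between the drugs thus passed the test for Cxcl10 and not for Cx3cl1, in a comparison chosen with the values known. Ccl5 differed by 0.55 (SE 0.19, 95% interval 0.14 to 0.95, edgeR adjusted p = 0.118) and was higher with SFN in 2 of 3 replicates. It passed without DAC replicate 3 (edgeR adjusted p = 0.0362) and without the filter on low counts (0.0230).

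Whether the combination differed from the product of the single effects was tested by the interaction, the log2 change with SFN in the presence of DAC minus that in its absence. It was -0.50 for Ccl5 (SE 0.29, 95% interval -1.11 to 0.11), 0.43 for Cxcl10 (SE 0.18, 95% interval 0.05 to 0.82) and 0.03 for Cx3cl1 (SE 0.40, 95% interval -0.81 to 0.88). None passed the edgeR test (adjusted p = 0.909, 0.847 and 1.000). No gene of the 11638 did, with 683 at an unadjusted p-value under 0.05, and DESeq2 likewise called 0, with 505 at an unadjusted p-value under 0.05. On the CPM scale, the rise of Ccl5 above control was 14.3 ± 3.36 CPM with the combination treatment, against 11.5 ± 1.92 CPM for the sum of the single treatments (SD, n = 3), and it was the larger of the pair in 3 of 3 replicates. For Cxcl10 these values were 11.6 ± 1.92 and 5.87 ± 5.34 CPM, also with the combination the larger in 3 of 3 replicates. For Cx3cl1 they were 1.58 ± 0.896 and 1.42 ± 1.62 CPM. Such sums share their control libraries and were not tested.

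The replicate number moved with some of these transcripts. It passed the edgeR test for Cxcl10 (adjusted p = 0.0215), with replicate 3 above replicate 1 by 0.41 on the log2 scale, and 33.9% of all tested genes passed it. It did not pass for Ccl5 (adjusted p = 0.0958) or Cx3cl1 (adjusted p = 0.117). The library numbers in the labels follow the replicate number, so the culture and the library preparation cannot be told apart here.

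Cxcl10 overlaps Art3 on the opposite strand, and whether the counting used the strand of the reads is not stated. The level of Art3 was 2.00 ± 0.402 CPM in control cells, 1.80 ± 0.214 in DAC, 2.20 ± 0.349 in SFN and 2.36 ± 0.242 in DAC+SFN cells (SD, n = 3). Its averaged log2 change with DAC was -0.03 (SE 0.16, edgeR adjusted p = 0.940), where that of Cxcl10 was 0.84. Ccl2 and Cxcl16 also overlap genes of the other strand (Gm17268 and Zmynd15), and no overlap was annotated for the other 6.

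Other chemokine ligands were scarce. Of 29 further ligand genes, 20 were at 0 in all libraries, and 3 were high enough to test, the mucosal and skin chemokines Ccl25 (95 to 203 counts per library), Ccl27a (15 to 31) and Ccl28 (11 to 34). None of the 3 passed in any of the comparisons. For DAC+SFN against control, their edgeR log2 fold changes were 0.27, 0.01 and 0.72 (adjusted p = 0.213, 0.990 and 0.137). Ccl25 overlaps the abundant Elavl1 on the opposite strand.

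The receptors examined were largely absent from these cells. Ccr1, Ccr2, Ccr3 and Cxcr4 were at 0 in all 12 libraries, Cxcr6 had 1 count in 1 library, Cx3cr1 had 0 to 2 counts and Cxcr2, the CXCL1 receptor, had 5 to 19. Of 22 receptor genes in the list, 7 were at 0 in all libraries and 2 were tested. Cxcr3, the receptor of CXCL9 and CXCL10, was at 0.811 ± 0.368 CPM in control and 1.42 ± 0.702 with DAC+SFN (SD, n = 3) and did not pass (log2 fold change 0.79, SE 0.34, edgeR adjusted p = 0.0914).

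Ackr3, a scavenging receptor of CXCL12, fell with SFN. In replicates 1, 2 and 3 it was at 3.82, 3.14 and 3.03 CPM in control and 3.19, 3.25 and 2.997 with DAC. It was at 2.12, 1.47 and 2.90 CPM with SFN and 1.32, 1.58 and 2.66 with DAC+SFN. All 6 libraries that received SFN were below all 6 that did not. The averaged log2 change with SFN was -0.71 (SE 0.18, edgeR adjusted p = 0.00828), where 13.5% of tested genes were called lower, and it passed in each fit that left out 1 library (highest adjusted p = 0.0309) but not without the replicate block (0.0548). Against control, Ackr3 was lower with DAC+SFN, with a log2 fold change of -0.87 (SE 0.26, edgeR adjusted p = 0.0183), where 14.7% of tested genes were called lower. SFN against control (-0.65, SE 0.25, adjusted p = 0.0934) and DAC+SFN against DAC (-0.76, SE 0.26, 0.0577) did not pass.

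Regulators of chemokine transcription were tested as a list of 15 genes, all of them expressed (Nfkb1, Nfkb2, Rela, Relb, Rel, Nfkbia, Tnfaip3, Irf1, Irf3, Irf7, Irf9, Stat2, Cebpb, Jun and Fos). With DAC averaged over SFN, 3 rose, 0 fell and 12 did not pass, where 3.07% of all tested genes were called higher and 2.15% lower, and the median log2 change was 0.14 against 0.00 over all tested genes. The 3 were the interferon-response factors Irf7 (1.18, SE 0.19, edgeR adjusted p = 0.00424), Irf9 (0.53, SE 0.11, 0.0161) and Stat2 (0.35, SE 0.08, 0.0307). For DAC against control, Irf7 (1.16, edgeR adjusted p = 0.0880), Irf9 (0.48, 0.270) and Stat2 (0.27, 0.467) did not pass. With SFN averaged over DAC, 2 rose, 3 fell and 10 did not pass, with a median of -0.12, where 16.1% of all tested genes were called higher and 13.5% lower, shares near those of the list. Fos (0.63, SE 0.18, edgeR adjusted p = 0.0154) and Jun (0.42, SE 0.12, 0.0177), the subunits of AP-1, rose, and Irf7 (-0.63, SE 0.19, 0.0225), Irf9 (-0.34, SE 0.11, 0.0308) and Stat2 (-0.31, SE 0.08, 0.0133) fell. For SFN against control, Irf7 (-0.65, edgeR adjusted p = 0.157), Irf9 (-0.39, 0.121), Fos (0.43, 0.283) and Jun (0.39, 0.150) did not pass, while Stat2 did (-0.39, 0.0444).

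These averaged changes lay on top of larger differences between replicate numbers. Irf7 was at 2.48, 0.731 and 5.96 CPM in control replicates 1, 2 and 3 and at 3.85, 1.60 and 16.6 in those of DAC. It was at 2.02, 0.640 and 2.82 CPM with SFN and at 3.87, 1.44 and 7.47 with DAC+SFN. Irf9 was at 21.7, 7.53 and 36.8 CPM in control replicates and 28.3, 12.95 and 47.95 in DAC replicates. It was at 17.1, 9.145 and 19.6 CPM with SFN and at 22.9, 13.1 and 33.8 with DAC+SFN. Replicate 2 was the lowest and replicate 3 the highest of both genes in each group, and all groups overlapped, whereas the Cxcl10 libraries without DAC lay below all those with it. The replicate number passed the edgeR test with an adjusted p-value of 4.19e-06 for Irf7 and 3.88e-06 for Irf9, against 0.0215 for Cxcl10.

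The call of DAC on Irf7 held without each library in turn (highest edgeR adjusted p = 0.0301). That on Irf9 was lost without SFN replicate 3 (0.0668), and that on Fos with SFN without DAC replicate 1 (0.0569). The DAC call on Stat2 was lost in 8 of 12 such fits (highest edgeR adjusted p = 0.122, without SFN replicate 3). The SFN calls were lost in 5 of 12 for Irf7 (0.167, without SFN replicate 3), Irf9 (0.130, without SFN replicate 3) and Jun (0.0685, without control replicate 2), and held in all 12 for Stat2. Without the replicate block, none of these 8 regulator calls passed (adjusted p = 0.186 to 0.721), and by DESeq2 that of SFN on Jun (0.0735) did not.

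**Figure D4:**
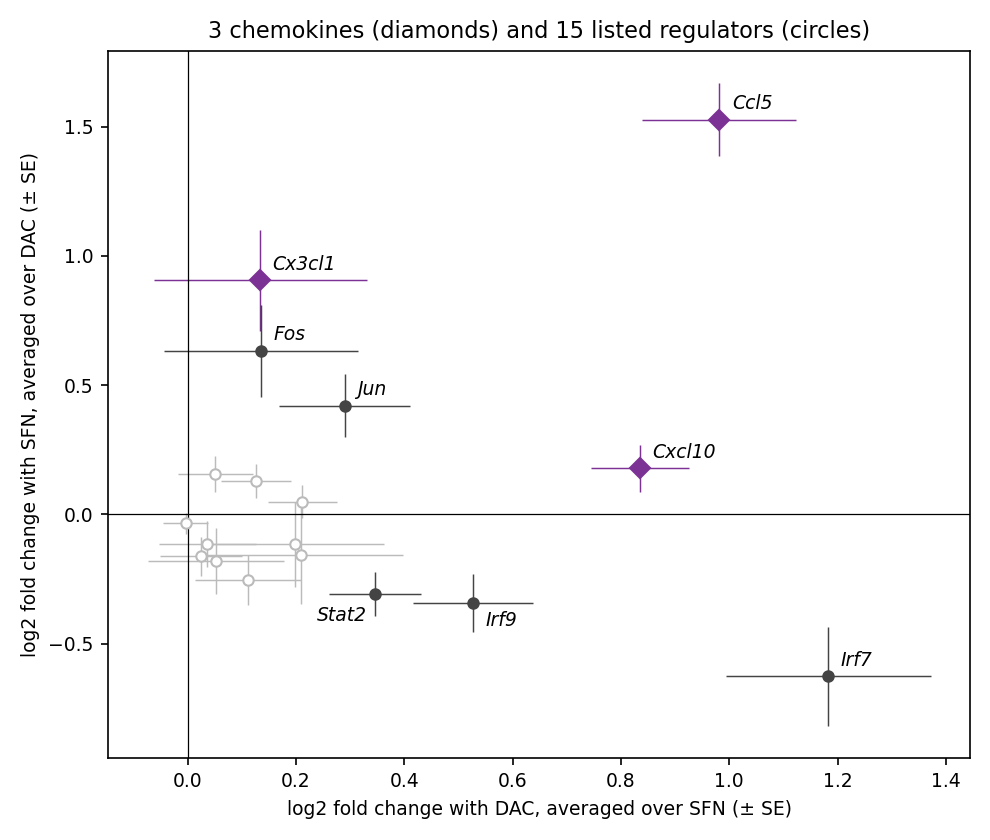
Log2 fold change with DAC averaged over SFN (horizontal) and with SFN averaged over DAC (vertical), each ± SE, for the 3 tested chemokines (diamonds) and the 15 regulators (circles). Filled symbols passed the edgeR test for at least 1 drug. Ccl5 lies high on both axes (0.98 and 1.53), Cxcl10 on the DAC axis, Cx3cl1 with Fos and Jun on the SFN axis, and Irf7 (1.18 and -0.63), Irf9 and Stat2 at positive DAC and negative SFN values.

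For DAC+SFN against control, 4 of the 15 regulators were higher, 0 lower and 11 did not pass, where 17.0% of all tested genes were called higher and 14.7% lower, and the median log2 fold change was 0.083. Jun (0.71, SE 0.17, edgeR adjusted p = 0.00638) and Fos (0.77, SE 0.25, 0.0305) were joined by the NF-kB subunits Nfkb2 (0.26, SE 0.09, 0.0394) and Rela (0.26, SE 0.09, 0.0462). Irf7 was at 0.56 (SE 0.26, edgeR adjusted p = 0.124) and Irf9 at 0.18 (SE 0.16, 0.394). Irf7 overlaps Phrf1, Irf9 overlaps Rnf31, Jun overlaps Junos, and Nfkb2 overlaps Psd and a non-coding gene in the annotation. Nfkb1, Irf1, Irf3 and Cebpb, which did not pass, also overlap other genes.

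The cytokines that induce these chemokines were nearly silent. Of 12 cytokine and cytokine receptor genes, Ifng and Il1b were at 0 in all 12 libraries, Ifnb1 had 0 to 4 counts and Tnf 0 to 5. Of the receptor genes, Ifnar1, Ifnar2, Ifngr1, Ifngr2 and Tnfrsf1a were high enough to test, while Il1r1 had 0 to 4 counts. With SFN averaged over DAC, the TNF receptor Tnfrsf1a rose by 0.28 (SE 0.05, edgeR adjusted p = 0.000769) and the type I interferon receptor chain Ifnar1 changed by -0.22 (SE 0.04, 0.00161) on the log2 scale, 1 gene of 5 in each direction, where 16.1% of all tested genes were called higher and 13.5% lower. Without the replicate block, Tnfrsf1a still passed (adjusted p = 0.0328) and Ifnar1 did not (0.149). With DAC averaged over SFN, 0 of the 5 passed, where 3.07% of all tested genes were called higher and 2.15% lower.

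Genes that act on chemokines after transcription were listed in 2 further groups. Of 6 proteases, 4 were tested, and with SFN averaged over DAC, where 16.1% of all tested genes were called higher, 2 rose, Mmp2, a gelatinase that trims chemokines (0.74, SE 0.12, edgeR adjusted p = 0.000295), and Adam10, which sheds CX3CL1 and CXCL16 (0.16, SE 0.04, 0.00854). Adam10 was abundant, at 156.1 ± 9.71 CPM in control and 169.9 ± 6.80 with SFN (SD, n = 3). It did not pass for SFN against control (0.12, edgeR adjusted p = 0.169) or DAC+SFN against control (0.08, 0.2925). It did for DAC+SFN against DAC (0.19, edgeR adjusted p = 0.03175). Of 5 genes of mRNA decay, all tested, Zfp36, whose protein marks AU-rich transcripts for decay, rose with SFN (0.34, SE 0.09, edgeR adjusted p = 0.0129) and 4 did not pass, a share near the 16.1% of all tested genes. Its relatives Zfp36l1 (0.19, SE 0.06, edgeR adjusted p = 0.0397, DAC+SFN against control) and Zfp36l2 (0.25, SE 0.08, 0.0412, SFN against control) passed in 1 comparison each. Without the replicate block Mmp2 still passed (adjusted p = 0.0492), while Adam10 (0.0740) and Zfp36 (0.216) did not. With DAC averaged over SFN, 0 genes of either group passed, where 3.07% of all tested genes were called higher and 2.15% lower.

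Markers of other cell types were examined, since leukocytes make Ccl5. Of 7 leukocyte markers, Ptprc, Cd3e, Itgam, Adgre1 and Nkg7 together had 0 to 3 counts per library, with Adgre1 and Nkg7 at 0 in all. The other 2, Cd68 and Lyz2, which are not restricted to leukocytes, carried nearly all of the summed level. That sum ran from 4.19 to 5.94 CPM over the control libraries, 5.38 to 8.68 over DAC, 7.62 to 13.9 over SFN and 10.9 to 16.3 over DAC+SFN, so it moved in the same order as Ccl5. Cd68 rose with SFN by 1.03 (SE 0.12, edgeR adjusted p = 2.18e-05) and with DAC by 0.52 (SE 0.12, 0.0233), and Lyz2 with SFN by 0.86 (SE 0.23, 0.0108) on the log2 scale. Of all tested genes, 16.1% were called higher with SFN and 3.07% with DAC. Cd68 did not pass for DAC against control (0.60, edgeR adjusted p = 0.229). Without the replicate block, only the change of Cd68 with SFN passed (adjusted p = 0.00859, against 0.417 and 0.113), and that with DAC was also lost in 5 of the 12 fits that left out 1 library (highest edgeR adjusted p = 0.0800, without SFN replicate 1). The pan-leukocyte marker Ptprc was at or near 0, and the part of the Cd68 and Lyz2 changes in the Ccl5 result was not tested. The 4 endothelial markers summed to 0.0753 to 0.766 CPM, with the highest sum in DAC+SFN and Cdh5 at 0 in all libraries. The 5 fibroblast markers summed to 19.6 to 366.3 CPM with overlapping groups. Most of this was Col1a1 (15.62 to 356.4 CPM), which moved with replicate number (edgeR adjusted p = 1.06e-09). With SFN averaged over DAC, Col1a1 did not pass (edgeR adjusted p = 0.726). Col1a2 (-0.74, SE 0.17, edgeR adjusted p = 0.00455) and Pdgfra (-0.54, SE 0.16, 0.0240) fell, where 13.5% of all tested genes were called lower. Over the alternatives run (edgeR or DESeq2), their highest adjusted p-values were 0.191 and 0.0791. With 1 library left out, Pdgfra passed in 7 of 12 fits and Col1a2 in 12. Of the 7 melanocyte genes, Pmel fell (-0.25, SE 0.07, edgeR adjusted p = 0.0142) and Tyr rose (0.12, SE 0.04, 0.0226) with SFN, and 5 did not pass. Of all tested genes, 13.5% were called lower with SFN and 16.1% higher. Over the alternatives run (edgeR or DESeq2), the highest adjusted p-value was 0.271 for Pmel and 0.544 for Tyr. With 1 library left out, the Pmel call held in 12 of 12 fits and the Tyr call in 7.

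The genes whose levels ran most like those of Ccl5 and Cxcl10 over the 12 libraries were found by Pearson's r of log2 CPM among the 11638 tested genes. These r values are descriptions, since the 12 points share the 4 groups and the replicate numbers. For Ccl5, they were Trib1 (0.958), H6pd (0.951), Hdc (0.948), Slc25a34 (0.945) and Cntnap1 (0.930). With the mean of each replicate number removed, they were Cdkn1a (0.991), Kctd11 (0.990), Cd81 (0.984), Pmm1 (0.983) and Btbd19 (0.982). For Cxcl10, they were Stat3 (0.919), Arhgap17 (0.911), Hapln4 (0.910), Mxd4 (0.877) and Ddx24 (0.863), and with the replicate means removed Hapln4 (0.982), Atf3 (0.938), Tbkbp1 (0.936), Acacb (0.923) and Lpin1 (0.921). Ccl5 and Cxcl10 were less like each other, with r of 0.606 before and 0.634 after the replicate means were removed. Cxcl10 thus ranked 1319 and 2523 among the genes like Ccl5, and Ccl5 ranked 326 and 754 among the genes like Cxcl10.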

How the data were processed

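RNA of B16F10 cells was sequenced as polyA-selected stranded libraries with single 75-base reads. Per the methods, the authors used Trimmomatic 0.38 for trimming and TopHat 2.1.1 for alignment to mm10, and deposited counts of uniquely aligned reads per gene symbol from htseq, without normalization. The annotation and strand setting of the counting are not given in the sources used here. Groups and replicate numbers were taken from the labels. The 9 chemokines, the gene lists and the tests were chosen with earlier results of these data known, and the motifs with the promoter sequences in view.

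Genes that reached 1 CPM in 3 or more libraries were scaled by TMM and fitted with edgeR 4.0.16 (R 4.3.3, legacy glmQLFit and glmQLFTest, two-sided) on the group and the replicate number. The SE was obtained as the size of a log2 fold change over the root of its F statistic, and 95% intervals use the same fit. Same-numbered libraries of different groups deviated together in 18 of 18 pairs (correlation 0.270 to 0.732), and the methods correct for a batch that they do not name, so the replicate block was kept. Likeness used log2 CPM with a prior count of 2. The fit was also run on simulated data, and no result of that run is reported here. Named were the 9 chemokines, their receptors, list genes that passed a drug comparison, and the 5 genes most like Ccl5 or Cxcl10. Some list genes that passed are given only by count, and some genes were left out of the lists and are not reported here. As alternatives, the Wald test of DESeq2 1.42.0 was run, its size factors replaced TMM, the filter was dropped or raised to 10 counts in every sample, the replicate block was left out, only the groups compared were fitted, CPM was taken on library totals, and each library was left out in turn. Transcript lengths and positions were taken from GENCODE on mm10. Plots were made in Python 3.11.15 (matplotlib 3.10.9).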

Additional observations from a re-analysis of the deposited data

How the results depend on the processing

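Without the replicate block, the number of the 3 tested chemokines that passed fell from 1 to 0 for DAC against control, from 2 to 1 for SFN against control, from 3 to 0 for DAC+SFN against DAC, from 1 to 0 for DAC+SFN against SFN and for SFN against DAC, from 2 to 0 for DAC averaged over SFN and from 2 to 1 for SFN averaged over DAC. For DAC+SFN against control, this number fell from 3 to 2. For DAC against control, 2 passed by DESeq2, without the filter on low counts and with only the groups compared. For DAC+SFN against SFN, 2 passed under those 3 settings and with DESeq2's size factors. For DAC+SFN against DAC, 1 passed with only the groups compared, and for SFN against DAC 2 passed without the filter. The cause was not tested. With 1 library left out, 0 to 1 passed for DAC against control, 1 to 2 for SFN against control, 2 to 3 for DAC+SFN against control, 1 to 3 for DAC+SFN against DAC, 0 to 2 for DAC+SFN against SFN and 0 to 2 for SFN against DAC, fewer libraries being fitted. Directions turned, with 1 library left out, for values that had not passed: Cx3cl1 spanned -0.16 to 0.54 for DAC against control, -0.053 to 0.34 for DAC+SFN against SFN, -0.39 to 0.32 for the interaction and -0.00080 to 0.34 for DAC averaged over SFN, and Cxcl10 spanned -0.14 to 0.11 for SFN against control. The remaining chemokine fold changes kept their direction under the alternatives run. Mean levels on library totals in place of TMM moved by less than 1 SD. Cx3cl1 rests on 23 to 94 counts per library, which limits its precision.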
